A study of Homo sapiens with 32 samples.

Results

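SK-N-MC and A4573 are established human Ewing sarcoma lines, and the comparison asks how their transcriptomes differ whatever their STAG2 status. It uses the 4 isogenic-pair libraries of the 32 samples of the series, chosen by cell line and not by any measured value: 2 libraries of SK-N-MC and 2 of A4573. The wider study asked how loss of STAG2, a subunit of the cohesin complex, changes gene regulation in this tumour. Its other libraries come from the line A673.

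Each line was sequenced as a clone that expresses STAG2 and a clone that lacks it. In SK-N-MC the clone labelled WT expresses STAG2 and the knockout clone lacks it. In A4573 the clone labelled WT lacks the protein, because the parental line does not make it, and the knock-in clone expresses it after repair of the gene. The labels give all 4 clones an inducible Cas9 construct (iCas9). The paper's methods describe that construct for A673. For the repair in A4573 they name a transfected plasmid that expresses Cas9. Every library is 1 clone, and the labels do not say whether libraries came from separate cultures. SK-N-MC was grown in another basal medium than A4573, so line and medium cannot be told apart.

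RNA was counted as reads per gene symbol. The STAG2-expressing and STAG2-lacking SK-N-MC libraries held 31679209 and 29322507 counts, and those of A4573 held 31778759 and 32261248. A count was found for 19661 and 19224 genes in SK-N-MC and for 18906 and 18628 in A4573. Below, levels are TMM-scaled counts relative to depth (CPM), pairs of values give the STAG2-expressing library first, and log2 fold changes are SK-N-MC over A4573. The value after ± is an approximate standard error worked back from the test. It is the absolute log2 fold change divided by the square root of the F statistic, so it adds nothing to the p-value. A floor of 3 counts per library corresponds to 0.0919 to 0.0991 CPM and covers counting error only.

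Ewing sarcoma is driven by a fusion of EWSR1 with an ETS gene, most often FLI1, whose product binds GGAA repeats and turns on a set of neural and developmental genes. SK-N-MC was once classed as a neuroepithelioma and has long served in pharmacology as a source of neuropeptide, dopamine, adrenergic and calcitonin gene-related peptide receptors. A4573 is used less often and is known mainly as a STAG2-deficient model. Lines from different tumours can differ in ancestry, copy number, silenced genes and culture history, and the part of each in the differences below was not tested.

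STAG2 itself was read first, since it defines the pairs. The gene (chromosome X, 123960560 to 124102656, RefSeq on GRCh38.p14, which holds for every position given here) stood at 295 and 186 CPM in SK-N-MC and 87.5 and 33.4 CPM in A4573. Its transcript was lower in the STAG2-lacking library of each line. The level in the SK-N-MC knockout library nonetheless exceeded that of the A4573 knock-in library, so transcript level does not follow protein status across lines. Between the lines the log2 fold change was 2.12 ± 0.33 (adjusted p 0.0238). Unedited A673 libraries, which also express STAG2, ranged from 249.8 to 349 CPM.

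The first question is how many genes separate the lines once STAG2 status is accounted for. Each gene was fitted with a term for line and a term for STAG2 status. A called gene has an adjusted p under 0.05 in edgeR's quasi-likelihood test. The residual of this fit has 1 degree of freedom and is what the sum of the line and STAG2 terms leaves. To it the test adds 4.23 prior degrees of freedom, borrowed across genes. The p-values thus measure only the spread between these libraries, not between cultures.

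Of 28278 genes in the table, 15796 were tested and 2106 were called (13.3%). Of these, 913 (5.78% of the tested genes) were higher in SK-N-MC and 1193 (7.55%) were higher in A4573. The smallest absolute log2 fold change of a called gene was 1.20, and 1080 called genes reached a fitted log2 fold change of at least 4 in size. The median over all tested genes was 0.03, and the median absolute value was 0.75. DESeq2 called 3589 genes, of which 2036 were among those called by edgeR. The count fell most when an A4573 library was left out, and the cause was not tested. A fit with a library left out cannot hold the STAG2 term, and with all 4 libraries the fit without that term called 2578 genes. Without the A4573 knock-in library edgeR called 0 genes (4338 at an unadjusted p under 0.05), and without the A4573 library labelled WT it called 39; no gene was called in all 4 of these fits. Without either SK-N-MC library the counts were 1761 (STAG2-expressing left out) and 2109 (STAG2-lacking left out).

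Because the lines can be set side by side within each STAG2 status, the difference was also taken as a pair of plain ratios, 1 for each status. The ratios are made from the same libraries as the fit, which can hardly call a gene whose pairs disagree, so it is no independent result that both were at least 2-fold in all 2106 called genes. Over all tested genes, 4260 (27.0%) were apart by 2-fold or more in both comparisons in the same direction, 1948 of them higher in SK-N-MC and 2312 higher in A4573. Another 256 genes were apart by 2-fold or more in both comparisons but in opposite directions. Each ratio sets 1 library against 1 and carries no test.

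Some calls described below were lost under an alternative that kept all 4 libraries. With scaling by library size NR0B1, PHGDH, EMCN, HK1, HOXA2 and KCNJ2 were not called, the last also not without the filter. Without the STAG2 term STAG2 itself, ADRB1, HK1, IGF1, IGFBP3, MSMO1, NDN and SEMA3A were not called. DESeq2 did not call PCDHA11, HOXA2 and KCNJ2, and the fit of all libraries did not call IGFBP5. The calls of CXCL12, HOXA2, PCDHA11, PLXNA2, RAD21 and SOX2 were lost when either SK-N-MC library was left out.

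**Figure D1:**
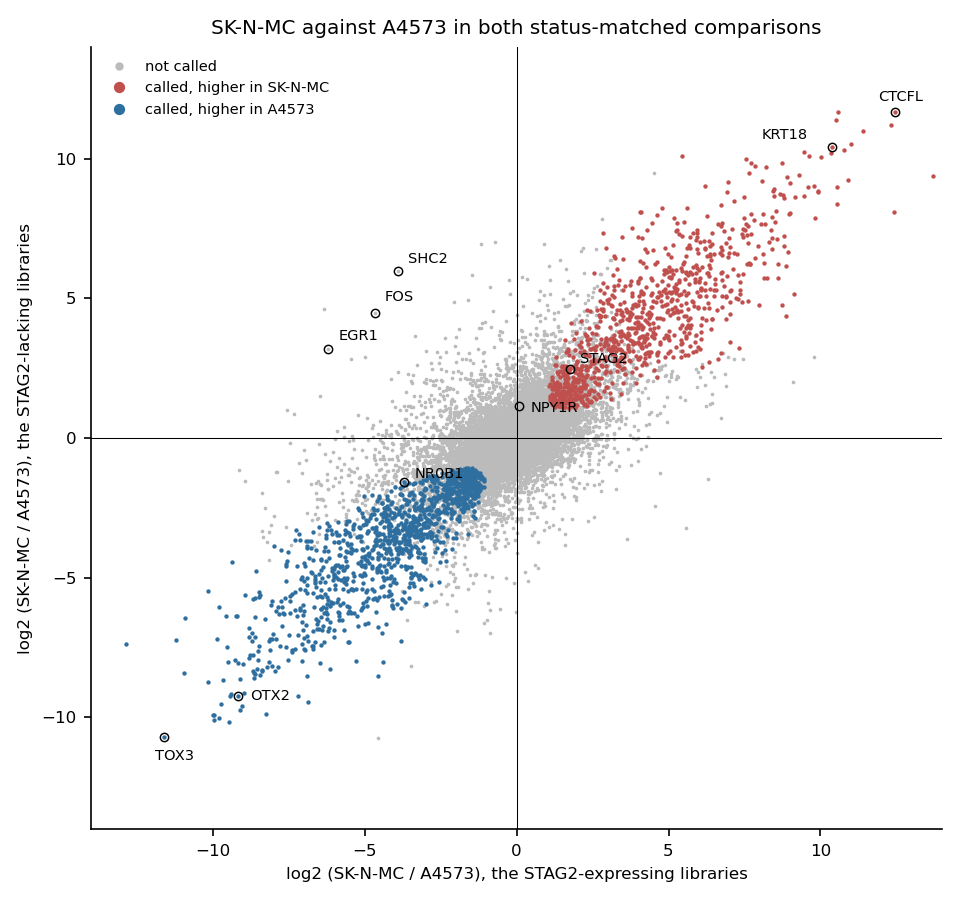
Each point is a tested gene, with the log2 ratio of SK-N-MC over A4573 between the STAG2-expressing libraries on the horizontal axis and between the STAG2-lacking libraries on the vertical axis. Called genes lie in the quadrants where both ratios have 1 sign, while SHC2, FOS and EGR1 lie in the upper left.

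The genes that separate the lines most in both comparisons have varied roles and are nearly or fully without counts in a line. In the direction of SK-N-MC, CTCFL (BORIS, a germline paralog of CTCF; chromosome 20, 57495965 to 57525652) had 542 and 639 CPM in SK-N-MC against 0.032 and 0.13 CPM in A4573. Its log2 fold change was 12.80 ± 0.59 (adjusted p 0.00568). COCH, which encodes cochlin of the inner ear matrix, had 329 and 228 CPM in SK-N-MC and 0 and 1 counts in A4573. FABP7, a lipid-binding protein of radial glia, had 98.2 and 425 CPM against 0 and 2 counts, and NEFH, the heavy neurofilament, had 139 and 173 CPM against 1 and 0 counts. KRT18, a simple-epithelial keratin with many processed copies that could share its reads, had 431 and 176 CPM against 0.256 and 0.0649 CPM.

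A group of these genes had no counts in either A4573 library. FAM111A, which encodes a protease that acts at replication forks, had 171 and 129 CPM in SK-N-MC, at least 1554-fold higher than the floor. IFI16, a sensor of foreign DNA, had 130.2 and 93.5 CPM (at least 1156-fold), and ATAD1, an extractor of misplaced tail-anchored proteins from mitochondria, had 113 and 80.9 CPM (at least 1001-fold). PRSS21, a testicular serine protease, had 84.1 and 74.9 CPM (at least 821-fold), and WDFY3, a large autophagy adaptor, had 66.5 and 67.9 CPM (at least 694-fold). Their adjusted p-values lay between 0.00631 and 0.00933, and fitted fold changes of such genes depend on the prior count and are no bound. ATAD1 is a gene of general use, and unedited A673 held 72.2 to 89.2 CPM of it.

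In the direction of A4573, TOX3, a chromatin-binding factor of neurons and breast epithelium, had 0 counts in both SK-N-MC libraries and 201 and 107 CPM in A4573, at least 1609.6-fold. OTX2, a forebrain and retinal homeobox factor, had 0.827 and 0.33 CPM in SK-N-MC and 512 and 236 CPM in A4573, and its log2 fold change was -9.35 ± 0.41 (adjusted p 0.00568). PHACTR3 (64 and 61.2 CPM in A4573, at least 656-fold) and TIAM1 (35.4 and 54.7 CPM, at least 472-fold) both act on the actin skeleton and had no counts in SK-N-MC. EPM2AIP1, a partner of the glycogen-related protein laforin, had 56.5 and 67.1 CPM in A4573 and no counts in SK-N-MC (at least 648-fold). B3GALNT1, the globoside synthase, had 53.7 and 46.8 CPM in A4573 and no counts in SK-N-MC (at least 526-fold). EPHX2, the soluble epoxide hydrolase, had 65.5 and 38.2 CPM against 1 and 0 counts. CENPVL3 and SPIN3 are X-linked members of families with near-identical copies, so their counts are uncertain: they had 67.5 and 73.4 CPM and 43.3 and 36.5 CPM in A4573, against 1 and 0 counts and no counts.

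A673, measured in other experiments, shows which of the lines stands out, although line and experiment cannot be told apart there. The tally used levels of all count libraries scaled together, a scale on which the line values differ slightly from those printed. Among the 10 genes with the largest differences in the direction of SK-N-MC, the A673 median was at or below A4573 for 1, between the lines for 7 and within or above the SK-N-MC range for 2. Among the 10 in the direction of A4573, it was at or below SK-N-MC for 1, between for 7 and within or above the A4573 range for 2. FAM111A (26.3 to 46.2 CPM), IFI16 (36.7 to 97.2 CPM) and WDFY3 (39 to 52.4 CPM) were well above the floor in A673, so A4573 stood apart from both other lines in these genes. PRSS21 (0 to 0.0551 CPM) and FABP7 (0 to 0.726 CPM) were low in A673 as in A4573.

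**Figure D2:**
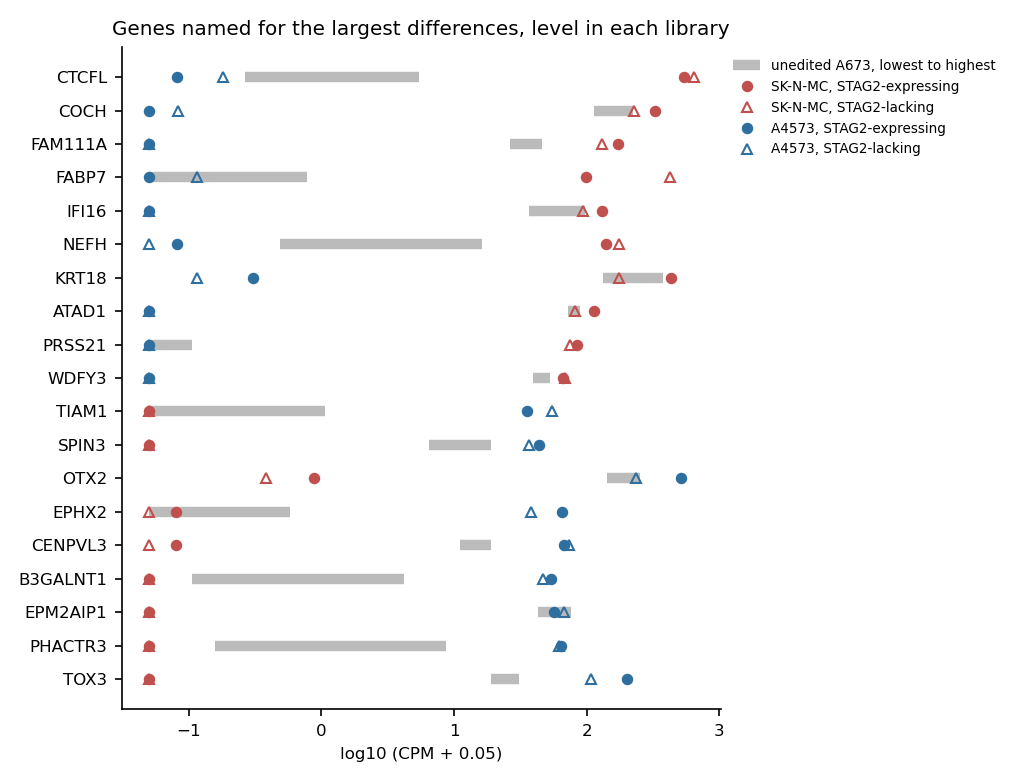
Level of 19 genes with the largest differences, as log10 of CPM plus 0.05, in the SK-N-MC libraries (red) and A4573 libraries (blue), with the range of the unedited A673 libraries as a grey bar. For FAM111A, IFI16, ATAD1 and EPM2AIP1, A673 lies near the line that transcribes the gene.

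Some of the genes absent or nearly absent from a line act in most cell types, among them 3 chosen after their values were seen. PSMD5, a chaperone of proteasome assembly, had no counts in SK-N-MC and 32.3 and 36 CPM in A4573 (at least 358-fold). SMARCA1, an ISWI chromatin remodeller on the X chromosome, had 0.643 and 0.694 CPM against 244 and 273 CPM (log2 fold change -8.58 ± 0.38, adjusted p 0.00568). In the other direction HEXA, a lysosomal hexosaminidase, had 70.8 and 50.3 CPM in SK-N-MC and 3 and 2 counts in A4573 (ratio 756-fold, 95% counting interval 323 to 2328). All 3 genes were well above the floor in unedited A673, at 66.2 to 86.9, 138 to 236 and 55.9 to 89 CPM.

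At the scale of the whole table, 800 genes had at most 3 counts in both libraries of a line and at least 10 in both of the other. A4573 was the line at the floor for 456 of them (81 with a mean of at least 10 CPM in SK-N-MC), and SK-N-MC for 344 (61 with such a mean in A4573). In 7 places at least 3 neighbouring genes were at the floor together in a line and measured in the other. A4573 had 3 such runs: GLYATL2, FAM111B, FAM111A-DT and FAM111A on chromosome 11; NKX6-1, CDS1, WDFY3 and WDFY3-AS2 on chromosome 4; and RNF39, TRIM10 and TRIM15 in the MHC region of chromosome 6. SK-N-MC had 4: the front of the HOXA cluster on chromosome 7 (HOTAIRM1, HOXA2, HOXA3, HOXA-AS3, HOXA5 and HOXA6 among them, of which HOXA2, HOXA3, HOXA5 and HOXA6 had no counts in unedited A673 either); KCNJ2 to SOX9 and their long noncoding neighbours on chromosome 17; a histone group (H2BC11, H2AC11 and H2BC12) on chromosome 6; and ST6GAL2 with LINC01886 and RGPD4 on chromosome 2. WDFY3 and WDFY3-AS2 overlap, so reads of the shared stretch cannot be told apart in libraries without strand.

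Promoter sequence shows whether a gene starts in CpG-rich DNA, where methylation can silence it. The promoters of 2 genes without counts in A4573 are given from RefSeq (GRCh38.p14, 300 bases around the first start listed for each gene, on the strand of the gene, with every CG in capitals, a motif that reads the same on both strands). Over 27195 promoters, which leave out chromosomes 8 and Y, 95.9% held at least 1 CG and the median was 14. ATAD1 (chr10:87818177-87818476, minus strand) held 27 and FAM111A (chr11:59142606-59142905, plus strand) 21. As many or more were found in 28% and 39.6% of promoters, so both held more than the median. The start used for ATAD1 lies inside the longest span RefSeq gives the gene, FAM111A has a further start, and which start the lines use was not measured. Methylation of these promoters was not measured.

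ATAD1: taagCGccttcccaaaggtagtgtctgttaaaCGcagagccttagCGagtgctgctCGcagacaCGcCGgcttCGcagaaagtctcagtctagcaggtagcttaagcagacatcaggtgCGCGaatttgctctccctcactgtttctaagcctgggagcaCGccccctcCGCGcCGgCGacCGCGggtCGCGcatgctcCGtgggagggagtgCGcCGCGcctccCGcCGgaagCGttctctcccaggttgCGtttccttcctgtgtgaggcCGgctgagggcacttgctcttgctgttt

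FAM111A: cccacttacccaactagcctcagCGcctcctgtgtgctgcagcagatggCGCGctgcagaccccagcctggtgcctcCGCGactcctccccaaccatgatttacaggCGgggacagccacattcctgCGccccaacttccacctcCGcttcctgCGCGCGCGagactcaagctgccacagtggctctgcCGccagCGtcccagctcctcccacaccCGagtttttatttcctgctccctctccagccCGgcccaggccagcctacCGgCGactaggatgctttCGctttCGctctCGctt

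The driver fusion was the next object of comparison, because both lines carry a Ewing sarcoma fusion and counts per gene cannot separate the fusion from the normal partners. EWSR1 was level, at 359 and 388 CPM in SK-N-MC and 289.9 and 420.4 CPM in A4573 (log2 fold change 0.10 ± 0.30, adjusted p 0.849). FLI1 had 58.3 and 68.5 CPM and 49.1 and 34 CPM, and its log2 fold change of 0.63 ± 0.35 was not called (adjusted p 0.274). The EWSR1 relative TAF15 (347 and 360.2 against 303 and 272 CPM) was not called either. The other ETS genes were low in both lines: ETV1 had 0.153 and 0.231 CPM against 2.63 and 1.95 CPM (adjusted p 0.0514) and FEV 10.2 and 1.39 CPM against 0.769 and 0.227 CPM (adjusted p 0.0566), while ERG (1 and 0 against 13 and 1 counts) and ETV4 (9 and 1 against 44 and 3 counts) were too low to test. Of this group 6 genes were tested, 0 were called higher in SK-N-MC and 0 higher in A4573 (0% called; median 0.20, range -0.18 to 0.29).

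CD99, the diagnostic surface protein of Ewing sarcoma, had 0 counts in all 4 libraries and in unedited A673. The same was true of all 17 coding genes in the table that the annotation places on both X and Y with a single name. Reads of such genes can match both chromosomes, and whether that led to the 0 counts was not tested. The table therefore gives no measure of CD99 in either line.

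Known targets of EWS::FLI1 were then compared. Beside each list stand the share of its tested genes that was called, to be read against 13.3% of all genes, and the median with its range over all alternatives, each library left out among them. Of 29 genes known as activated by the fusion, 3 were called higher in SK-N-MC and 2 higher in A4573 (17.2% called; median 0.60, range 0.17 to 1.24). The lowest median came without the STAG2-expressing SK-N-MC library and the highest without the A4573 knock-in library. The neuropeptides led the SK-N-MC side: CCK had 54.3 and 188 CPM against 0.0961 and 1.23 CPM (log2 fold change 7.86 ± 0.60, adjusted p 0.00896), and NPY had 3.83 and 9.45 CPM against no counts in A4573 (at least 68.6-fold, adjusted p 0.0238). The orphan receptor NR0B1, a target through a GGAA repeat, was higher in A4573 at 444 and 261 CPM against 34 and 86.9 CPM (log2 fold change -2.65 ± 0.60, adjusted p 0.0479). That call was lost under scaling by library size, without the STAG2-expressing SK-N-MC library and without either A4573 library. SOX2 was also higher in A4573, at 355 and 253 CPM against 96.7 and 92.7 CPM, a call lost with any of the 4 libraries left out. Targets that mark the tumour were present in both lines and not called, such as NKX2-2 (84.1 and 86.2 against 153 and 106 CPM) and CCND1 (1214 and 1191 against 1644 and 917 CPM).

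Among 18 genes known as repressed by the fusion, 6 were called higher in SK-N-MC and 2 higher in A4573 (44.4% called; median 0.96, range -0.34 to 1.80, the lowest without the STAG2-expressing SK-N-MC library). IER3, an immediate early gene, had 31.7 and 16.5 CPM in SK-N-MC and no counts in A4573 (at least 249-fold). THBS1 had 6.77 and 14 CPM against 0.417 and 0.455 CPM. SPRY1 (0.49 and 0.496 against 13.7 and 5.45 CPM) and the chemokine CXCL12 (0.306 and 0.595 against 2.82 and 7.6 CPM) went the other way. LOX and TGFBR2, repressed targets often used to read fusion activity, were not called, at 13.4 and 8.59 against 28.9 and 20.7 CPM and 4.13 and 0.727 against 13.8 and 11.1 CPM.

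SK-N-MC is a standard source of several receptors, so it was asked whether A4573 transcribes them too. The Y1 receptor gene NPY1R, for which SK-N-MC is the reference line, was as high in the A4573 knock-in library as in SK-N-MC, at 233 and 159 CPM in SK-N-MC and 222 and 70.7 CPM in A4573 (log2 fold change 0.61 ± 0.37, adjusted p 0.31). Of the 2 lines, SK-N-MC alone transcribed both receptor and ligand, since NPY had no counts in A4573. NPY5R, which overlaps the start of NPY1R on the other strand and is uncertain for that reason, had 6.34 and 7.6 CPM and 21 and 3.77 CPM.

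The D1 dopamine receptor gene DRD1 was called higher in SK-N-MC, at 24.3 and 11.5 CPM against 0.384 and 0.325 CPM (log2 fold change 5.55 ± 0.69, adjusted p 0.0169). ADRB1, the beta1-adrenergic receptor gene, had 229.6 and 107 CPM against 59.2 and 40.1 CPM (log2 fold change 1.68 ± 0.30, adjusted p 0.031). The receptor for calcitonin gene-related peptide needs CALCRL together with RAMP1, whereas CALCRL with RAMP2 binds adrenomedullin. CALCRL was not called (40.6 and 10.5 against 84.1 and 36.2 CPM, adjusted p 0.0632). RAMP1 had 57.5 and 30.3 CPM in SK-N-MC and 0 and 2 counts in A4573 (ratio 1378-fold, 95% counting interval 381 to 11388, adjusted p 0.0107), and RAMP2 was higher in A4573 at 43.9 and 46.7 CPM against 13.7 and 9.12 CPM (adjusted p 0.0367). RAMP3 had no counts in any of the 4 libraries. CALCRL was thus transcribed beside RAMP1 and RAMP2 in SK-N-MC and beside RAMP2 in A4573.

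The other receptors of the list were mostly low. ADORA2B was called higher in A4573, at 26.2 and 15.9 CPM against 3.34 and 1.42 CPM (log2 fold change -3.22 ± 0.55, adjusted p 0.028). CHRM3 had 0.643 and 0.694 CPM against 10.2 and 3.44 CPM, BDKRB2 0.245 and 0.363 against 3.94 and 0.39 CPM, and HTR2A 0.0612 and 0.0661 against 0.545 and 0.357 CPM, and none of these was called. CRCP, a signalling partner of the CALCRL receptor, was level at 51.3 and 51.1 CPM and 54.7 and 52.9 CPM. DRD5 (0 and 0 against 9 and 2 counts), HTR7 (4 and 25 against 2 and 2), ADORA2A (2 and 5 against 0 and 2) and HRH1 (28 and 5 against 9 and 9) were too low to test. Over the group, 3 of 13 tested genes were called higher in SK-N-MC and 2 higher in A4573 (38.5% called; median -1.21, range -1.89 to -0.36). The median ratio was -1.05 between the STAG2-expressing libraries and -0.09 between the STAG2-lacking ones.

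Interferon-stimulated genes were compared because cell lines often differ in their resting antiviral state. Of 53 tested, 16 were called higher in SK-N-MC and 0 higher in A4573 (30.2% called; median 1.85, range 1.22 to 2.97, beside 13.3% and 0.03 for all genes). The lowest median came without the A4573 library labelled WT and the highest without the knock-in library. The median ratio was 1.29 and 2.41 between the STAG2-expressing and the STAG2-lacking libraries, and 26 genes were at least 2-fold higher in SK-N-MC in both, against 3 in A4573. HERC5, the ligase for ISG15, had 27.3 and 58.9 CPM in SK-N-MC and no counts in A4573 (at least 446-fold, adjusted p 0.00998), and OAS3, which senses double-stranded RNA, had 51.6 and 37.2 CPM against 0.128 and 0 CPM. ISG15 had 22.4 and 29.6 CPM against 55.3 and 8.18 CPM and IFIT1 6.86 and 6.31 CPM against 2.18 and 0.0325 CPM, and neither was called, although IFIT1 was at least 2-fold higher in SK-N-MC in both comparisons. Summed over the list, the level was 1178 and 1086 CPM in SK-N-MC and 812 and 355 CPM in A4573. The gap between the lines was thus wider without STAG2, and an interaction of line and STAG2 status cannot be tested with 1 library per arm.

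Antigen presentation genes were compared beside them. Of 24 genes tested, 4 were called higher in SK-N-MC and 0 higher in A4573 (16.7% called; median 0.56, range 0.28 to 1.16, a share near the 13.3% of all genes). The immunoproteasome subunit PSMB8 had 24.3 and 8.86 CPM in SK-N-MC and no counts in A4573 (at least 171-fold, adjusted p 0.017), and its neighbour PSMB9 had 15.2 and 8.72 CPM against 0.961 and 0.584 CPM (adjusted p 0.0271). The peptide-presenting chains B2M and HLA-B were not called: B2M had 959 and 509 CPM against 211 and 237 CPM and HLA-B 27.7 and 45.7 against 220.2 and 80.7 CPM. HLA genes are so alike and so variable that reads may be lost or shared between them, which makes their levels uncertain.

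Developmental identity was compared through lists of lineage genes, since the cell of origin of Ewing sarcoma is debated between mesenchymal and neural crest precursors. Of 82 lineage transcription factors tested, 18 were called higher in SK-N-MC and 18 higher in A4573 (43.9% called; median -0.77, range -0.83 to -0.22). SK-N-MC held the ventral neural tube factor NKX6-1 (49.5 and 32.8 CPM against no counts, at least 425-fold) and the muscle and neural crest factor PAX7 (35.7 and 100 against 0.417 and 0.13 CPM, adjusted p 0.0156). A4573 held OTX2 and the cartilage and neural crest factor SOX9 (26.2 and 20.8 CPM against no counts, at least 246-fold, adjusted p 0.0144).

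HOX genes were called in both directions. Of 35 HOX genes tested, 7 were called higher in SK-N-MC and 6 higher in A4573 (37.1% called; median 0.14, range 0.13 to 0.66). HOXC12 (28 and 26.6 CPM against no counts, at least 282-fold) and HOXB5 (8.67 and 5.35 against 0.032 and 0.0974 CPM) were higher in SK-N-MC. HOXA11 (0.153 and 0.0991 against 9.2 and 6.79 CPM) and HOXA3 (no counts against 1.19 and 1.72 CPM) were higher in A4573, and in unedited A673 neither had a count. Both have antisense partners, so their counts without strand are uncertain. Of the posterior HOXD genes, known for high levels in Ewing sarcoma, HOXD9 was called higher in A4573 (12.1 and 8.36 against 88.2 and 66.9 CPM). HOXD13 and HOXD11, like HOXD9 picked after their values were seen, were not called: HOXD13 had 131 and 251 CPM against 188 and 187 CPM and HOXD11 37.6 and 29.6 against 47.9 and 31.5 CPM.

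Neural genes differed member by member, without a common direction. Of 41 tested, 3 were called higher in SK-N-MC and 7 higher in A4573 (24.4% called; median 0.20, range -0.28 to 0.75). The median ratio was of the other sign, at -0.09 and -0.29 between the STAG2-expressing and the STAG2-lacking libraries. Neuronal filament genes went both ways: NEFH was higher in SK-N-MC, as above, and PRPH, which encodes peripherin, in A4573, with 461 and 769 CPM against 0.735 and 2.81 CPM (log2 fold change -8.65 ± 0.52, adjusted p 0.00568). The granin CHGA was higher in SK-N-MC (14.6 and 19.6 against 0 and 0.162 CPM, adjusted p 0.0217). The growth cone protein GAP43 (0.551 and 0.33 against 53 and 67.3 CPM) and the adhesion molecule NCAM1 (2.42 and 0.264 against 78.7 and 32.7 CPM) were higher in A4573, with adjusted p-values of 0.00899 and 0.0144.

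Clustered protocadherins, which give neurons a surface identity and are chosen by CTCF and cohesin loops, were compared as a family. Of 47 tested, 10 were called higher in SK-N-MC and 1 higher in A4573 (23.4% called; median 1.64, range 0.93 to 2.14, beside 13.3% and 0.03 for all genes). The lowest median came without the STAG2-expressing SK-N-MC library and the highest without the STAG2-lacking SK-N-MC library. PCDHB5 had 78.1 and 88.9 CPM against 0.16 and 0.13 CPM (log2 fold change 9.13 ± 0.49, adjusted p 0.00568) and PCDHA5 5.82 and 8.43 against 0.032 and 0.162 CPM, while PCDHA11 was higher in A4573 at 1.06 and 1.79 CPM against 0.0612 and 0.0991 CPM. The alpha genes share their last exons, so counts of single members are uncertain. Axon guidance genes had 4 calls higher in SK-N-MC and 8 higher in A4573 among 53 tested (22.6% called; median -0.06, range -0.36 to 0.14, of the other sign under scaling by library size). The semaphorins split between the lines: SEMA6D (29.9 and 7.34 against 1.47 and 0.552 CPM) and SEMA3C (108 and 53.7 against 11.3 and 5.62 CPM) were higher in SK-N-MC, and SEMA3A (2.2 and 0.165 against 39 and 14.9 CPM) and the receptor PLXNA2 (0.0612 and 0.0991 against 1.6 and 1.49 CPM) in A4573.

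Mesenchymal and matrix genes, which mark the more migratory end of Ewing sarcoma cells, were called in both directions. Of 71 tested, 13 were called higher in SK-N-MC and 14 higher in A4573 (38% called; median -0.18, range -0.31 to 0.51). COL1A2, a fibrillar collagen chain, had 529 and 17.5 CPM in SK-N-MC and 1 and 0 counts in A4573 (adjusted p 0.00568), and it fell sharply in the SK-N-MC library without STAG2. S100A6 had 13.5 and 10.2 CPM against no counts (at least 122-fold). A4573 instead held N-cadherin, CDH2 (36.7 and 56.8 CPM against 1 and 3 counts), and fibrillin 2, FBN2 (73.1 and 94.2 against 0.214 and 0.264 CPM, log2 fold change -8.42 ± 0.46). FN1 and VIM, staples of the mesenchymal state, were not called: FN1 had 4057 and 114 CPM against 2522 and 816 CPM, a larger spread between the clones of SK-N-MC than between the lines, and VIM 373 and 162 against 233 and 458 CPM.

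Epithelial genes gave 5 calls higher in SK-N-MC and 2 higher in A4573 among 23 tested (30.4% called; median 0.71, range 0.15 to 1.64). The keratin pair KRT8 and KRT18 was higher in SK-N-MC, with 43.3 and 22.1 CPM of KRT8 against 0.352 and 0.162 CPM (adjusted p 0.00958). The desmosomal genes DSG2 and PKP1 were the calls higher in A4573: DSG2 had 102 and 58.9 CPM against 0.214 and 0.231 CPM (log2 fold change -8.43 ± 0.52) and PKP1 245 and 194 against 3.43 and 3.04 CPM (log2 fold change -6.08 ± 0.34), both with an adjusted p of 0.00568. E-cadherin, CDH1, was too low to test in all 4 libraries, with 0 and 13 counts in SK-N-MC and 1 and 0 in A4573.

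Growth factor routes were compared next, since the IGF1 receptor has been a drug target in this tumour. Of 19 IGF genes tested, 4 were called higher in SK-N-MC and 0 higher in A4573 (21.1% called; median 0.27, range -0.11 to 0.48). The ligand IGF1 had 46.9 and 177 CPM against 5.29 and 18.2 CPM (log2 fold change 3.21 ± 0.32, adjusted p 0.0107), and the binding proteins IGFBP3 (9.28 and 37.1 against 1.51 and 4.16 CPM) and IGFBP5 (124 and 161 against 31.4 and 28.5 CPM) went with it. The receptor IGF1R leaned the other way and was not called (15.6 and 27.4 against 43.3 and 65.5 CPM, adjusted p 0.0577).

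Among 47 receptor tyrosine kinases tested, 8 were called higher in SK-N-MC and 6 higher in A4573 (29.8% called; median -0.02, range -0.23 to 0.65, of the other sign under scaling by library size). FGFR3 had 247 and 159 CPM against 8.62 and 8.28 CPM (log2 fold change 4.55 ± 0.35, adjusted p 0.00896) and LTK 17.2 and 39.5 against 0.288 and 0.292 CPM. EGFR had no counts in SK-N-MC and 16.4 and 8.28 CPM in A4573 (at least 129-fold, adjusted p 0.0193), and EPHA8 had 0 and 1 counts against 28.4 and 10.7 CPM. WNT genes gave 7 and 6 calls among 41 tested (31.7% called; median 0.16, range -0.00 to 0.56). The ligand WNT10A (85.2 and 30.6 against 0.128 and 0.195 CPM) and the antagonist SFRP5 (5.05 and 17 CPM against 0 and 2 counts) were higher in SK-N-MC. The antagonists SFRP1 (0.122 and 0.165 against 31 and 46.8 CPM) and FRZB (0.398 and 0.0991 against 83.7 and 21.6 CPM) were higher in A4573.

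Cohesin genes were compared because STAG2 is a cohesin subunit. Polycomb genes were added because the paper reports that expression changes after STAG2 loss and after Polycomb loss correlate in A673. Of 19 cohesin genes tested, STAG2 was the single call higher in SK-N-MC and RAD21 the single call higher in A4573 (10.5% called; median 0.25, range -0.04 to 0.50). RAD21, the kleisin subunit on chromosome 8, had 414 and 454 CPM in SK-N-MC and 1572 and 1370.5 CPM in A4573 (log2 fold change -1.76 ± 0.32, adjusted p 0.0319), and unedited A673 held 390.4 to 557 CPM, near SK-N-MC. The call of RAD21 was lost without either SK-N-MC library, as it was without either A4573 library. STAG1, the paralog of STAG2, was level at 70.1 and 106 CPM and 73.4 and 132 CPM. SMC3 was not called (324 and 304 against 202 and 253 CPM), nor was SMC1A (443 and 541 against 157 and 269.6 CPM, adjusted p 0.0573).

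Of 31 Polycomb genes tested, 5 were called higher in SK-N-MC and 0 higher in A4573 (16.1% called; median 0.56, range 0.44 to 0.75, a share near the 13.3% of all genes). PCGF5 had 121 and 110.1 CPM against 15.6 and 16 CPM (log2 fold change 2.87 ± 0.31, adjusted p 0.0133) and EZH1 58.3 and 62.1 against 17.6 and 20.2 CPM (adjusted p 0.0366). EZH2 was not called, at 366 and 248 against 43.1 and 117 CPM (adjusted p 0.0695), and the A4573 knock-in library held least of it.

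Cell cycle genes were read next. Of 33 regulators of the cell cycle, drivers and brakes alike, tested, 3 were called higher in SK-N-MC and 1 higher in A4573 (12.1% called; median 0.09, range -0.03 to 0.33). CDKN2A had 164 and 175 CPM against 53.8 and 64.1 CPM (adjusted p 0.0315) and no counts in unedited A673. CDKN2B had 4.26 and 2.61 CPM in SK-N-MC and no counts in A4573 (at least 35.5-fold). RB1 was higher in SK-N-MC (127 and 113 against 30.2 and 31.4 CPM, log2 fold change 1.96 ± 0.29, adjusted p 0.0225) and TP73 in A4573 (1.44 and 1.59 against 12.9 and 31.9 CPM, adjusted p 0.0265). Transcript levels say nothing of mutations, which were not examined.

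Proliferation genes gave 0 calls higher in SK-N-MC and 0 higher in A4573 among 30 tested (0% called; median 0.33, range -0.34 to 1.24). The median hides a split: it was 1.33 and -0.36 between the STAG2-expressing and the STAG2-lacking libraries. MKI67 shows where it came from, with 368 and 243 CPM in SK-N-MC and 47.1 and 288 CPM in A4573, low in the knock-in library alone. Without that library the median of the list was the lowest of the range and of the other sign.

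Genes of the amino acid stress response driven by ATF4 were compared next. Of 26 genes tested, 0 were called higher in SK-N-MC and 5 higher in A4573 (19.2% called; median -1.96, range -3.26 to -0.67, beside 13.3% and 0.03 for all genes). The difference was larger between the STAG2-expressing libraries (-3.68 and -0.70, for the median ratios with and without STAG2), and the median was highest without the A4573 knock-in library. PHGDH, which starts serine synthesis, had 168 and 268 CPM against 1962 and 813 CPM (log2 fold change -2.57 ± 0.57, adjusted p 0.046). CBS, of transsulfuration, which has a duplicate in the assembly and is uncertain, had 3 and 2 counts in SK-N-MC and 15.1 and 11.5 CPM in A4573 (adjusted p 0.0138), and ALDH1L2, of mitochondrial folate metabolism, 0.276 and 0.562 against 301 and 40.9 CPM (adjusted p 0.0195). CHAC1 (3.77 and 11.8 against 242 and 31.9 CPM), ASNS (2.2 and 3.27 against 28.5 and 3.86 CPM) and DDIT3 (19.7 and 17.6 against 101 and 29.2 CPM) were highest in the knock-in library and not called. EMEM and DMEM differ in amino acids and glucose, so medium and line cannot be told apart for these genes in particular.

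Lipid synthesis genes were called in both directions. Of 28 cholesterol and fatty acid genes tested, 2 were called higher in SK-N-MC and 6 higher in A4573 (28.6% called; median -0.60, range -0.87 to -0.01). The sterol synthesis gene MSMO1 (58 and 105 against 18.7 and 36.7 CPM, adjusted p 0.0347) was higher in SK-N-MC. The fatty acid genes FADS2 (135 and 142 against 1069 and 1138 CPM, log2 fold change -2.99 ± 0.32, adjusted p 0.0126) and ELOVL6 (7.14 and 7.24 against 67.8 and 81.3 CPM, adjusted p 0.0126) were higher in A4573. Glycolysis and hypoxia genes had 0 calls higher in SK-N-MC and 3 higher in A4573 among 27 tested (11.1% called; median -0.20, range -0.28 to -0.11), led by EGLN3 (0.0306 and 0.132 against 2.5 and 3.08 CPM) and HK1 (12.3 and 33.1 against 87.3 and 89.1 CPM, adjusted p 0.0424).

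Genes of drug response had 3 calls higher in SK-N-MC and 4 higher in A4573 among 35 tested (20% called; median -0.50, range -0.51 to -0.27). The aldehyde dehydrogenase ALDH1A1, which detoxifies cyclophosphamide products, had 94.8 and 21.5 CPM in SK-N-MC and no counts in A4573 (at least 601-fold, adjusted p 0.00961). CYP1B1 was higher in SK-N-MC (77.1 and 63.9 against 1.7 and 5.94 CPM). CES1, a carboxylesterase that activates irinotecan and has a close pseudogene, had 2.6 and 0.628 CPM against 803 and 646 CPM (log2 fold change -9.06 ± 0.65, adjusted p 0.00783), and the transporter ABCC6, which also has pseudogenes, 0.276 and 0.132 against 7.37 and 3.51 CPM. SLFN11, a marker of response to DNA-damaging drugs, was level at 255 and 189.6 CPM and 213 and 206 CPM, and MGMT was not called (21.8 and 15.3 against 33.9 and 26.2 CPM).

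Germline and imprinted genes were compared as marks of epigenetic history. Of 50 cancer-testis and germline genes listed, 30 were at or under the floor in all 4 libraries and 10 were tested, with 2 calls higher in SK-N-MC and 1 higher in A4573 (30% called; median 4.25, range 2.24 to 4.80, or 3.05 with genes at 0 set at their bound). Besides CTCFL, PRAME, which has near copies, was higher in SK-N-MC (5.63 and 0.76 CPM against 1 and 0 counts, adjusted p 0.0238), and SYCP1, of the meiotic synaptonemal complex, was higher in A4573 (3 and 1 counts against 17.9 and 14.7 CPM, adjusted p 0.0124). The called germline genes passed the filter through the counts of their higher line alone. No conclusion is therefore drawn from the share and median of the germline list. Imprinted genes gave 4 and 3 calls among 34 tested (20.6% called; median 0.13, range -0.04 to 0.22). NDN (6.06 and 58.8 against 0.0961 and 1.56 CPM) and PEG13 (10.4 and 3.9 CPM against 1 and 0 counts) were higher in SK-N-MC, and WT1 (1 and 2 counts against 5.22 and 8.12 CPM) and TP73 in A4573. PEG13 lies inside TRAPPC9 and WT1 has an antisense partner, so both are uncertain without strand.

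Marker lists of other cell types were read as a check of what else the lines transcribe. Immune markers had 2 calls higher in SK-N-MC and 0 higher in A4573 among 7 tested (28.6% called; median 0.67, range 0.16 to 1.28), namely PTPRC (3.03 and 58.7 against 0 and 0.13 CPM) and CD79A (24.7 and 21.6 against 0.128 and 0.682 CPM). Both ratios were higher in SK-N-MC for 3 of the 7 and in A4573 for 3. Their median ratio was -0.02 and 1.16 between the STAG2-expressing and the STAG2-lacking libraries. Endothelial markers had 2 and 0 calls among 6 (33.3% called; median 2.26, range 1.20 to 4.14), namely EMCN (45.1 and 20.8 against 0.032 and 0.942 CPM) and CLDN5 (3.28 and 0.562 CPM against no counts). They went both ways: 3 of the 6 were at least 2-fold higher in SK-N-MC in both comparisons, and 2 in A4573. Of 10 erythroid markers listed, 2 were tested and 6 were at or under the floor in all 4 libraries. HBA2, whose coding sequence matches that of HBA1, was called higher in SK-N-MC (2.42 and 1.45 CPM against no counts; 50% called; median 4.74, range 1.39 to 4.81, or 2.44 with HBA2 at its bound). HBA2 passed the filter through its SK-N-MC counts alone, so no conclusion is drawn from the share and median of this list. Muscle markers had 0 and 2 calls among 3 tested of 11 listed (66.7% called; median -5.25, range -5.99 to -2.30). The calls were TNNT2 (2 and 2 counts against 5.22 and 2.01 CPM) and DES (1 and 2 counts against 3.3 and 1.14 CPM). Both passed the filter through their A4573 counts alone, and 6 listed markers were at or under the floor in all 4 libraries. The share and median of the muscle markers thus follow largely from the filter, and no conclusion is drawn from them.

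Sympathetic neuroblast markers had 0 and 1 calls among 6 (16.7% called; median -1.39, range -1.70 to 0.12): HAND2 was higher in A4573, at 129 and 93.7 CPM against 28.8 and 23.3 CPM (adjusted p 0.021), and MYCN was low in both lines (2.05 and 3.21 against 6.73 and 5.68 CPM). Melanocyte and Schwann markers had 1 and 2 calls among 7 (42.9% called; median 0.61, range -0.01 to 1.77). S100B was higher in SK-N-MC (6.52 and 24.7 against 0.513 and 1.14 CPM), and PMP22 (0.0612 and 0.43 against 3.75 and 10 CPM) in A4573. For every list but the germline and erythroid ones, setting genes with no counts in a line at their bound left the median as given.

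**Figure D3:**
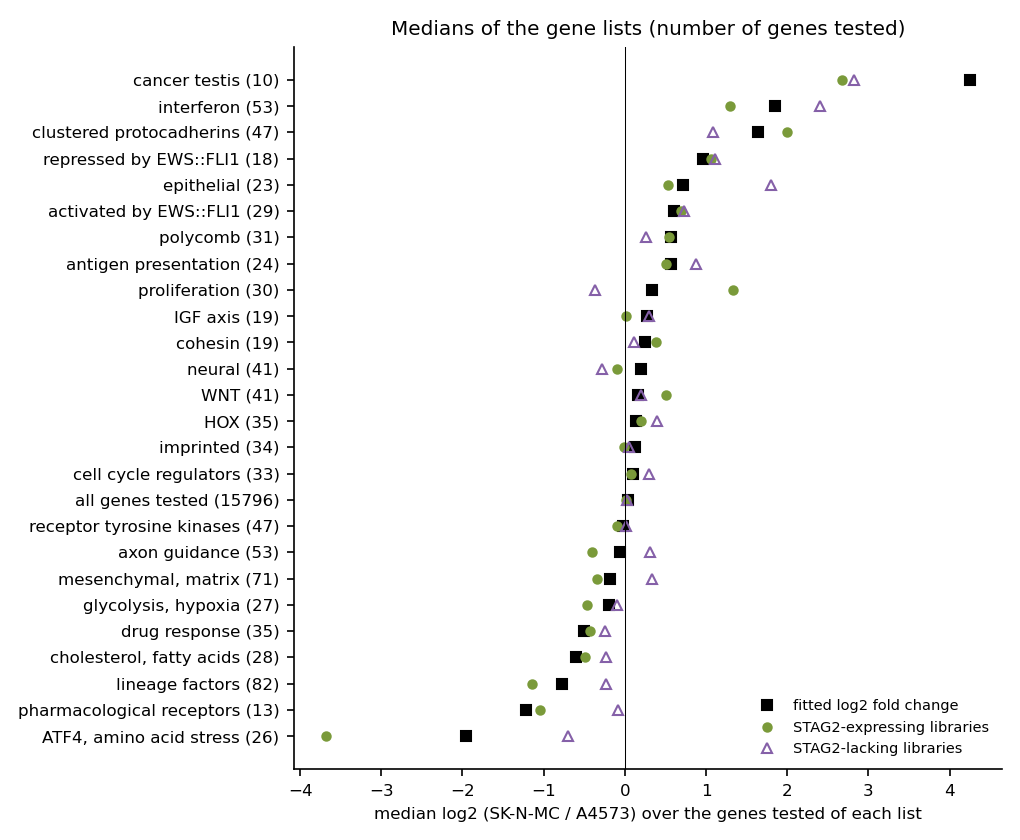
Median log2 ratio of SK-N-MC over A4573 for each gene list with at least 10 genes tested (number in brackets): fitted value (square), STAG2-expressing libraries (circle) and STAG2-lacking libraries (triangle). The interferon and protocadherin lists are among several that lie above 0 by all 3 measures, and the amino acid stress list is among several below 0. The proliferation list is among those with ratios of opposite sign.

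Differences along the chromosomes were described last, because tumour lines carry their own gains and losses. Over whole chromosomes the median log2 fold change was lowest on chromosome 8 (-0.96 over 551 genes, with 144 called higher in A4573 and 20 higher in SK-N-MC). Of all 15796 tested genes, 1193 were called higher in A4573 and 913 higher in SK-N-MC. The median was highest on chromosomes 14 (0.57) and 19 (0.56). For chromosome 14 the median ratio was 0.92 between the STAG2-expressing libraries and 0.23 between the STAG2-lacking ones, and for chromosome 19 it was 0.50 and 0.64. Under scaling by library size the medians of chromosomes 1 (-0.07) and 2 (-0.07) changed sign. Genes were then cut into 313 blocks of about 50 tested neighbours, a description added after the data were seen. In 23 blocks the median was -1 or lower, and in 8 it was 1 or higher. Neighbouring genes are not independent, and copy number was not measured.

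The start of chromosome 17 held the longest stretch, 6 blocks in a row from DOC2B to TLCD1 (142789 to 28727937). Its 294 genes had a median of -1.58, and both ratios were lower in SK-N-MC for 240 of them, beside 5783 of all 15796 tested genes. The block just after it, from NEK8 to TMEM132E, had a median of 0.51. On chromosome 8 the stretch from RPL23AP53 to PLPBP (208344 to 37779768) had a median of -1.58 over 151 genes, and that from STK3 to PHF20L1 (98343975 to 132848807) had -1.88 over 100. The latter holds RAD21, TRPS1 (1.65 and 11.4 against 51.8 and 29 CPM) and MYC (249 and 289 against 869 and 416 CPM), of which RAD21 alone was called.

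Chromosome 1 had a low stretch from DPYD to H3-2 (97077743 to 143905977; median -1.18 over 150 genes). Stretches higher in SK-N-MC lay on chromosome 6 from PAK1IP1 to ZSCAN16-AS1 (median 1.16 over 98 genes), on chromosome 13 from COG6 to COMMD6 (median 1.12 over 94 genes, RB1 among them), and on chromosome 5 from HARS2 to PCDHGC3 (median 1.58 over 51 genes), where most of the protocadherins lie.

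**Figure D4:**
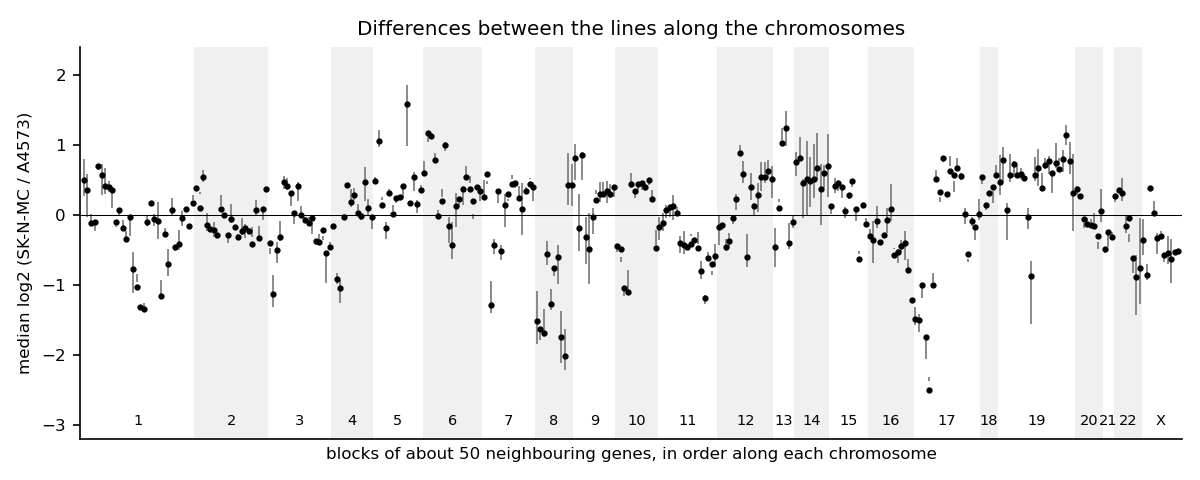
Median log2 ratio of SK-N-MC over A4573 in blocks of about 50 neighbouring tested genes, in order along each chromosome: the fitted value as a point, and the range between the ratios of the STAG2-expressing and STAG2-lacking libraries as a line. The start of chromosome 17 and most of chromosome 8 lie well below 0.

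The last comparison looks for genes whose difference between the lines depends on the pair of libraries chosen. Among tested genes averaging 10 CPM or more in a line, the widest gaps between the ratios were those of SHC2, EGR1 and FOS. SHC2, an adaptor of growth factor receptors, had 1.29 and 16.3 CPM in SK-N-MC and 20.2 and 0.195 CPM in A4573. EGR1 had 16.4 and 75.6 CPM and 1212 and 8.18 CPM, and FOS had 16.7 and 39.4 CPM and 426 and 1.72 CPM. FOSB, of the same immediate early class, was also high in the A4573 knock-in library alone, at 0.49 and 0.661 CPM and 98.3 and 0.747 CPM. Immediate early genes rise within minutes of handling or fresh serum, and whether the knock-in culture was handled differently was not recorded in the labels. Their fitted differences between the lines were not called, with adjusted p-values of 0.921, 0.845, 0.98 and 0.294.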

How the data were processed

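Per the labels, total RNA of 4 cell line libraries was prepared with a low-input kit that keeps no strand. The authors aligned reads to hg38 with TopHat2 (2.0.0; SAMtools 0.1.16; Bowtie 0.12.7) after FastQC, and deposited a read count per gene symbol; the counter and annotation are not given in the sources used here.

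Counts were scaled by TMM and tested with edgeR 4.0.16 (filterByExpr over the lines, quasi-likelihood test, line and STAG2 status as terms, Benjamini-Hochberg over 15796 genes, called under 0.05) in R 4.3.3, tested on simulated data first. Status-matched ratios used a prior count of 2. Depths are in the report; no library pair agreed within sampling noise. Members, lists and rules were chosen with earlier results of these data known. Named are STAG2; the 10 called genes per direction with the largest smaller ratio and a mean of at least 10 CPM, without clone and LINC names; the top 2 called members per list and direction; all fusion and receptor genes; the 3 widest gaps; and 47 genes chosen after their values were seen. Some genes that met the rule are not reported here. All 1057 list members were found, 1 by an older symbol. RefSeq on GRCh38.p14 placed 15586 tested symbols. Levels in A673 came from scaling all 26 count libraries together. Alternatives were DESeq2 1.42.0, library size, no filter, no STAG2 term, a fit of all count libraries, each library left out, other prior counts, filters and floors. The 6 normalized knockdown columns were not used.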

Additional observations from a re-analysis of the deposited data

Results flagged for a closer look

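For 4 genes named by the rule the difference between SK-N-MC and A4573 went opposite ways, by 2-fold or more each way, with and without STAG2. Each value here is the log2 ratio of SK-N-MC over A4573 between the STAG2-expressing libraries minus that between the STAG2-lacking libraries. It was -9.88 for SHC2, -9.40 for EGR1, -9.14 for FOS and -2.72 for NPY5R. Each ratio rests on 1 library against 1, so the difference was not tested. Among genes chosen after their values were seen, ISG15 (-3.15), BST2 (-8.09) and GDF15 (-8.28) did the same. In all of these genes the A4573 knock-in library was higher than the A4573 library labelled WT, and the cause was not tested.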

How the results depend on the processing

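The 2106 calls became 3589 with DESeq2 and 7110 when all 26 count libraries set the spread, and they ranged from 0 (without the A4573 knock-in library) to 2109 (without the SK-N-MC knockout library) when each library was left out in a fit without the STAG2 term. In those fits the lone library of a line is assumed to vary like the other line. Without A4573 WT 39 genes were called. The cause of these changes was not tested. Of the 2106 calls, 2036 were shared with DESeq2 and 2089 with the fit of all libraries, and no shared call changed direction under any alternative. Library size only (1911), no filter (2573), no STAG2 term (2578) and a 2-fold minimum (2106) stayed within 1.5 times. With 0 counts as the floor, 302 genes in place of 800 were absent from a line, by construction of the stricter floor. Of 120 called named genes, 117 were called with DESeq2, 113 with library size only and 112 without the STAG2 term. With a library left out they were 100 (SK-N-MC WT), 106 (SK-N-MC knockout), 0 (A4573 knock-in) and 15 (A4573 WT), and none changed sign. Among 32 list medians, 14 took another sign under at least 1 alternative. No paired analysis was possible because the libraries carry clone names and no shared replicate numbers, and STAG2 status is already a term of the fit.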

Other observations

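Levels that fit no comparison above are given as values. BST2 had 8.7 and 31.6 CPM in SK-N-MC and 19.4 and 0.195 CPM in A4573, and GDF15 0.459 and 0.397 CPM and 22.6 and 0 CPM, so both had far more counts in the A4573 knock-in library than in the other A4573 library. The Polycomb gene BMI1 stood at 7.23 and 5.75 CPM and 4.61 and 6.07 CPM. ABCB1, the drug efflux pump, had 0 and 11 counts in SK-N-MC and 0 and 0 in A4573. The summed level of the 26 amino acid stress genes was 1546 and 1914 CPM in SK-N-MC and 11765 and 3812 CPM in A4573, with PHGDH the most abundant.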
